A study of Homo sapiens with 27 samples.

Results

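The genes described here were the amino acid transporters of the SLC1A, SLC6A, SLC7A, SLC36A, SLC38A and SLC43A families, together with SLC3A1 and SLC3A2, the heavy chains that some SLC7A proteins need to reach the cell surface. They were taken by symbol from the protein-coding genes of the count table, which gave 59 members among 19578 protein-coding genes and 60619 genes in all. RNA-Seq had been performed on 2 estrogen receptor (ER)-positive human breast cancer cell lines of the invasive lobular carcinoma (ILC) type, MDA-MB-134VI (MM134) and SUM44PE, and on long-term estrogen-deprived (LTED) variants grown out of them, which serve as models of resistance to estrogen withdrawal. The 9 groups were MM134 parental cells, 4 variants of it (MM134 LTED-A and -B, MM134 LTED-D and -E), the SUM44PE and SUM44F parental cells, and the variants SUM44 LTED-A and LTED-B. SUM44F was made from SUM44PE by growth in the DMEM and L-15 medium with whole serum used for MM134, and it was the parental line of both SUM44 variants. Parental cells of either line had been deprived of hormone for 3 days in charcoal-stripped serum before RNA was taken, whereas LTED variants had lived in that serum for months, so that all groups were compared without added estrogen. Each variant was grown out once, and its replicates were wells of 1 culture seeded in triplicate, so p-values measure the spread between wells and not between independent derivations.

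Amino acid transporters are membrane proteins that carry amino acids and close relatives across the plasma membrane or the lysosomal membrane, either along the sodium or proton gradient or by exchanging an amino acid inside for one outside. Sodium-coupled carriers such as the SLC38A proteins load the cell with glutamine and other small neutral amino acids, and some exchangers use this pool to bring in leucine. Leucine and arginine feed protein synthesis and signal to the growth kinase mTORC1, cystine supplies glutathione, and shortage of amino acids raises transcription of several transporters through the factor ATF4.

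The 27 libraries held 28583554 to 134882175 counts each (median 44018412), of which the members took 0.170% to 0.324%. SUM44 LTED-A replicates 2 and 3 differed by less than the sampling noise, while the other 26 pairs of replicates did differ, so they were averaged and counted as 1 sample, which left 26 samples and n = 2 in that group (n = 3 elsewhere). All 8 luminal breast markers were present in every group, and CDH1, the E-cadherin gene whose protein is lost in ILC, was measured at group means of 8.84 to 22.7 CPM (counts scaled for library size). SUM44F parental replicate 1 stood apart and carried fibroblast transcripts, with a summed level of COL1A1, COL1A2, PDGFRB and DCN of 169 CPM against 4.99 to 27.6 CPM in the other 25 samples. The other 9 markers of cells that the culture should not hold (immune, endothelial and basal) summed to 25.1 to 36.3 CPM in the 3 SUM44F libraries, against 9.32 to 10.7 in SUM44PE, 2.16 to 4.72 in the SUM44 variants and 1.69 to 5.25 in the MM134 groups. PECAM1 made up most of that sum (SUM44F mean 25.3 CPM), while CDH5, the other endothelial marker, had a mean of 0.343 CPM in SUM44F. Their part in the SUM44 results was not tested. Fewer cells of a type and less RNA per cell cannot be told apart in such bulk libraries. Among the members, SLC1A1 and SLC3A1 stood higher in this SUM44F replicate 1 library than in SUM44F replicates 2 and 3. So did the low members SLC1A3, SLC6A13, SLC38A5 and SLC43A3, all at or under 1.24 CPM in SUM44F. Calls that changed when this library was left out are named below.

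Levels are normalised CPM from 1 scaling over all 26 samples, and values in a series follow replicates 1, 2 and 3. A gene was called differentially expressed (DE) when its fold change exceeded 1.5 and its adjusted p was under 0.001 in edgeR's quasi-likelihood test, with Benjamini-Hochberg adjustment over all genes tested. The words rose, fell, upregulated and downregulated are used only of such calls. For a log2 fold change, the value after ± is a standard error derived from the test. It is the absolute log2 fold change divided by the square root of the F statistic. Levels are compared between genes only as CPM per kilobase of the canonical transcript.

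By canonical length, the transporters at high level per kilobase were the same few genes in both parental lines. In MM134 parental cells the order was SLC38A1 (85.5 ± 3.18 CPM per kilobase, mean ± SD), SLC3A2 (84.5 ± 0.443), SLC38A2 (76.6 ± 1.79), SLC1A5 (45.9 ± 0.888) and SLC1A4 (43.4 ± 0.595), which together made up 81.6% of the 412 CPM per kilobase summed over all members. The first pair in that order, SLC38A1 and SLC3A2, lay within 1 SD of each other. SUM44F parental cells had the same 5 genes on top with SLC38A1 at 69.6 ± 2 and SLC3A2 at 52.7 ± 7.37, followed by SLC1A5 at 45.8 ± 6.86, SLC38A2 at 32.7 ± 0.632 and SLC1A4 at 24.7 ± 2.17, and here they held 68.4% of a sum of 330. SLC38A1 and SLC38A2 are sodium-coupled glutamine carriers and neighbours on chromosome 12, 88171 bases apart. Every LTED variant had a higher sum by canonical length than its parental line. The sums were 495 to 670 CPM per kilobase in the MM134 variants, 695 in SUM44 LTED-A and 642 in SUM44 LTED-B. Without division by length, the sum was 1909 CPM in MM134 parental cells and 2108 to 2572 CPM in its variants. Of all raw counts, the members took 0.205% to 0.213% in MM134 parental libraries, and every MM134 variant but LTED-A overlapped this range. MM134 LTED-A held 0.246% to 0.251%. The SUM44 variants held 0.262% to 0.324%, against 0.170% to 0.179% in SUM44F. SLC3A2 was the member of highest level per kilobase in all 6 LTED variants and in SUM44PE, with 267 ± 9.09 in MM134 LTED-A and 127 in SUM44 LTED-A and 119 in SUM44 LTED-B. The place of SLC3A2 depends on the length used. With the union of all its exons it ranked 5 in MM134 parental and 6 in SUM44F parental cells, where SLC7A5 was among the top 5. By that length SLC3A2 was highest in no group and was outside the top 5 in both SUM44 variants.

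**Figure D1:**
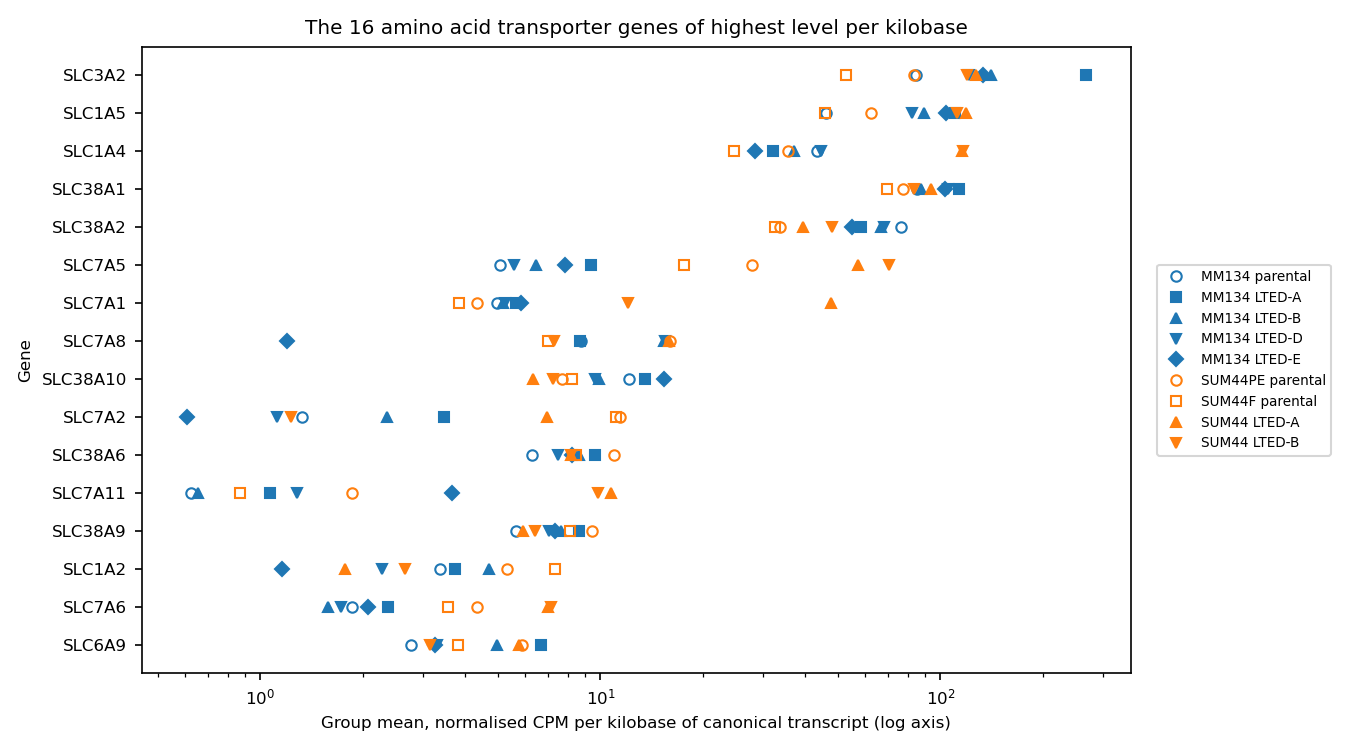
Mean level of the 16 members of highest level, in CPM per kilobase of canonical transcript on a log axis, with 1 point per group. MM134 groups are blue and SUM44 groups orange, open points are parental cells, and SLC38A1, SLC3A2, SLC38A2, SLC1A5 and SLC1A4 lie on top in both parental lines.

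At the other end, 11 members were too low to be tested in any comparison, among them SLC1A7, SLC6A2, SLC6A5, SLC7A4 and SLC38A8, with no group mean above 0.226 CPM. Of the 11, 4 had at most 3 counts in every sample. A group mean of 1 CPM or more was reached by 36 members, and 20 reached 10 CPM.

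Between 12 and 16 members were DE in each MM134 variant against MM134 parental cells, and 14 and 17 in the SUM44 variants against SUM44F. In MM134 LTED-A 10 members rose (10.5% of all genes did) and 6 fell (9.82%) of 45 tested, which is 35.6% of them beside 20.3% of all genes tested. MM134 LTED-B had 6 up (all genes 8.11%) and 6 down (7.75%), or 26.7% beside 15.9%. In LTED-D 7 rose (all genes 9.63%) and 5 fell (7.95%), or 26.7% beside 17.6%, and in LTED-E 5 rose (all genes 8.71%) and 11 fell (10.3%), or 35.6% beside 19%. In SUM44 LTED-A 10 of 43 tested members rose (all genes 6.39%) and 4 fell (7.28%), or 32.6% beside 13.7%. In SUM44 LTED-B 11 rose (all genes 8.69%) and 6 fell (8.57%), or 39.5% beside 17.3%. The median log2 fold change of the members stayed between -0.15 and 0.15 in all 6 comparisons, beside -0.09 to 0.02 for all genes. Members passed a filter on low counts before testing, so these shares describe the tested genes and were not themselves tested. Of the 59 members, 22 were called in at least 1 MM134 variant, 18 in at least 1 SUM44 variant and 30 in none, the 11 untested genes included. The 4 MM134 comparisons share their 3 parental libraries, and so do both SUM44 comparisons.

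**Figure D2:**
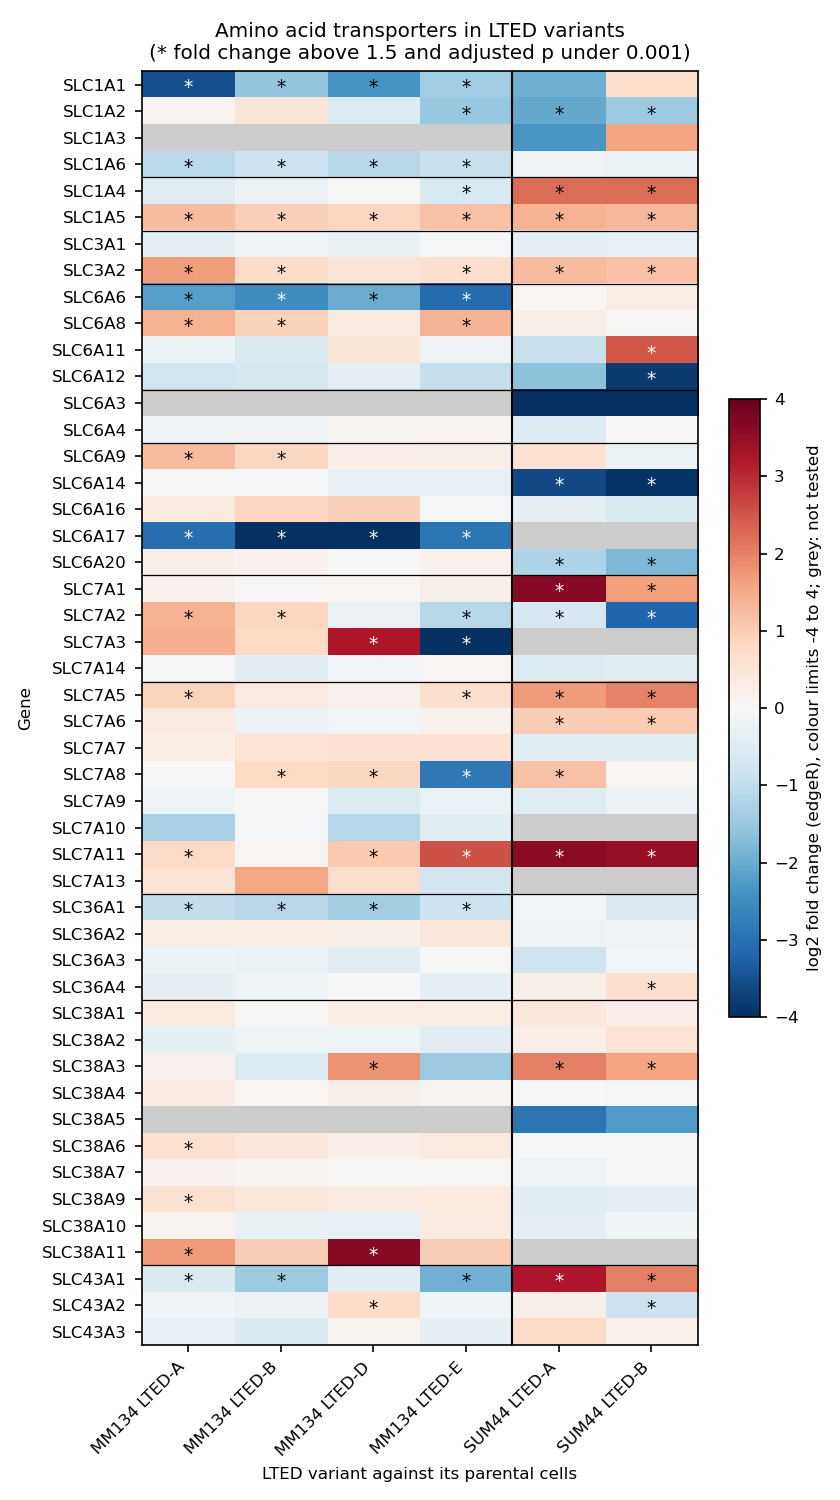
Heat map of the log2 fold change of 48 members (rows) in the 6 LTED variants against their parental line (columns), with a colour scale from -4 to 4, stars for DE calls and grey for genes not tested. SLC1A5 is upregulated in all 6 columns, and SLC6A6 is downregulated in the 4 MM134 columns with no call in the SUM44 columns.

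The glutamine exchanger SLC1A5 was the member upregulated in all 6 variants. SLC1A5 (ASCT2, chr19:46774883-46788594, minus strand, GRCh38/hg38) swaps glutamine and other neutral amino acids across the plasma membrane. Its level was 130.3, 135 and 132 CPM in MM134 parental, 304, 313 and 337 in LTED-A, 252, 259 and 263 in LTED-B, 239, 235 and 239 in LTED-D and 302, 289.7 and 303 CPM in LTED-E. In the SUM44 line it was 169.9, 184 and 187 CPM in SUM44PE, 144, 143 and 109 in SUM44F, 345 and 339.5 in LTED-A and 305, 336 and 327 CPM in LTED-B. Every LTED sample lay above every parental sample of its line. The log2 fold changes were 1.26 ± 0.03, 0.97 ± 0.03, 0.86 ± 0.03 and 1.18 ± 0.03 in MM134 LTED-A, -B, -D and -E (adjusted p from 2.14e-16 to 9.79e-14). They were 1.38 ± 0.12 and 1.29 ± 0.11 in SUM44 LTED-A and -B (adjusted p = 7.17e-06 and 4.97e-06). An unnamed long noncoding RNA overlaps 780 bases of its exons, and since the strand setting of the quantification is not given in the sources used here, reads of that stretch cannot be assigned with certainty.

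Its relative SLC1A4 (ASCT1), which exchanges alanine, serine and cysteine, behaved differently in the 2 lines. Across MM134 samples SLC1A4 was 195, 199 and 200.1 CPM in parental cells, 143, 146 and 150.3 in LTED-A, 161, 173 and 174 in LTED-B, 201, 203 and 207 in LTED-D and 128, 131 and 131 CPM in LTED-E. In SUM44 cells it was 159.5, 164 and 165 CPM in SUM44PE, 116, 121 and 102 in SUM44F, 514 and 541 in LTED-A and 515, 545 and 538 CPM in LTED-B. The SUM44 variants stood far above SUM44F and SUM44PE, while MM134 LTED-A, LTED-B and LTED-E lay below MM134 parental cells. SLC1A4 rose by 2.23 ± 0.10 and 2.24 ± 0.09 on the log2 scale in SUM44 LTED-A and LTED-B (adjusted p = 5.48e-08 and 2.4e-08). In MM134 LTED-E it fell by 0.60 ± 0.03 (adjusted p = 2.29e-12), and the other 3 MM134 variants had values of -0.44, -0.22 and 0.05 that did not pass the fold threshold.

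SLC3A2 (the CD98 heavy chain, chr11:62856004-62888880, plus strand) has no transport activity of its own and pairs with the light chains SLC7A5, SLC7A6, SLC7A7, SLC7A8, SLC7A10 and SLC7A11. It was upregulated in 5 of the 6 variants. MM134 parental samples held 159, 160.2 and 159 CPM, LTED-A 491, 498 and 523, LTED-B 263, 265 and 269, LTED-D 226, 230.4 and 228 and LTED-E 253, 253 and 250.1 CPM. SUM44PE samples held 153, 161 and 159 CPM, SUM44F 108, 107 and 83.3, SUM44 LTED-A 229 and 251 and SUM44 LTED-B 214, 229.9 and 231 CPM. No variant overlapped its parental group, and MM134 LTED-A was the highest of all groups. The log2 fold change was 1.66 ± 0.02 in MM134 LTED-A (adjusted p = 6.57e-20), 0.74 ± 0.02 in LTED-B and 0.67 ± 0.02 in LTED-E. In MM134 LTED-D it was 0.53 ± 0.02 (adjusted p = 1.5e-12), short of the 1.5-fold threshold. In the SUM44 variants it was 1.28 ± 0.11 and 1.18 ± 0.10 (adjusted p = 8.73e-06 and 6.48e-06).

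**Figure D3:**
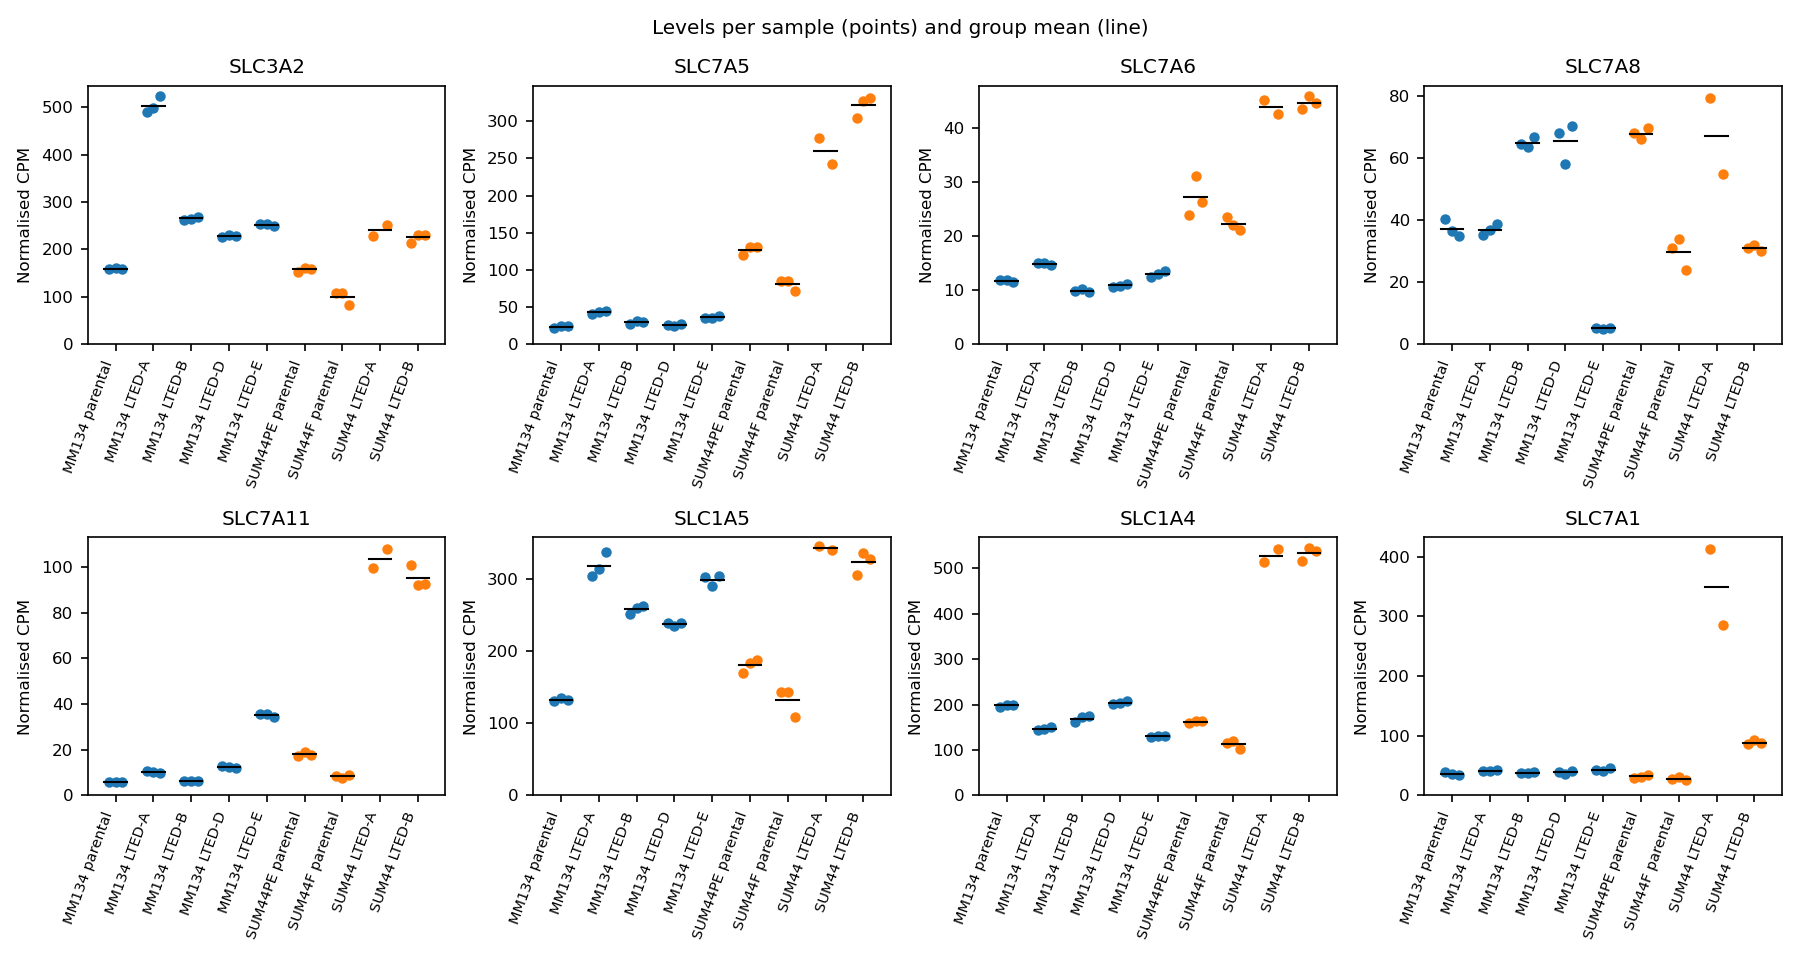
Normalised CPM of SLC3A2, SLC7A5, SLC7A6, SLC7A8, SLC7A11, SLC1A5, SLC1A4 and SLC7A1, with 1 point per sample and a line at each group mean, in the 9 groups. SLC3A2 and SLC1A5 are higher in the LTED samples than in the parental samples of both lines, while SLC7A6, SLC7A1 and SLC1A4 stand high in the SUM44 variants.

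Among the light chains, the leucine carrier SLC7A5 (LAT1, chr16:87830023-87869507, minus strand) rose in both SUM44 variants and in 2 of 4 MM134 variants. Its level was 21.8, 23.5 and 23.6 CPM in MM134 parental cells, 39.8, 43.5 and 44.8 in LTED-A, 27, 31.2 and 29.9 in LTED-B, 25.8, 23.9 and 26.6 in LTED-D and 35.4, 34.8 and 37.3 CPM in LTED-E. In the SUM44 line it was 119, 131 and 130.1 CPM in SUM44PE, 84.7, 85.2 and 71.4 in SUM44F, 278 and 242 in LTED-A and 304, 328 and 332 CPM in LTED-B. All SUM44 samples stood above all MM134 samples, and the variants of each line stood above its parental samples. The log2 fold change was 1.69 ± 0.10 and 2.0 ± 0.10 in SUM44 LTED-A and -B (adjusted p = 5.72e-07 and 7.73e-08). In MM134 it was 0.88 ± 0.06 in LTED-A and 0.65 ± 0.06 in LTED-E, and the values of 0.36 in LTED-B and 0.16 in LTED-D did not pass. Transcribed copies of part of the gene, SLC7A5P1 and SLC7A5P2, stood at mean levels of 0.535 and 0.398 CPM.

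SLC7A11 (xCT, chr4:138164097-138242349, minus strand), which imports cystine in exchange for glutamate, was upregulated in 5 of 6 variants and by the widest margin of any light chain. It measured 5.97, 6.07 and 5.99 CPM in MM134 parental cells, 10.7, 10.4 and 9.82 in LTED-A, 6.36, 6.49 and 6.17 in LTED-B, 12.7, 12.5 and 11.9 in LTED-D and 35.8, 35.7 and 34.2 CPM in LTED-E. It measured 17.3, 19 and 17.6 CPM in SUM44PE, 8.41, 7.67 and 9.09 in SUM44F, 99.6 and 108 in SUM44 LTED-A and 101, 91.9 and 92.7 CPM in SUM44 LTED-B. MM134 LTED-E stood apart from the other MM134 variants, and both SUM44 variants stood above all other samples. The log2 fold change was 3.62 ± 0.09 in SUM44 LTED-A and 3.50 ± 0.09 in LTED-B (adjusted p = 1.86e-09 and 6.69e-10), which is 12.3-fold and 11.3-fold. In MM134 it was 0.77 ± 0.05 in LTED-A, 1.05 ± 0.05 in LTED-D and 2.56 ± 0.05 in LTED-E (adjusted p = 4.14e-18), against 0.08 ± 0.06 in LTED-B (adjusted p = 0.41). The antisense gene SLC7A11-AS1 overlaps 865 of its exonic bases.

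SLC7A6 (y+LAT2), which exports arginine in exchange for glutamine and sodium, rose in both SUM44 variants. The MM134 samples lay between 9.67 and 15 CPM, and none of the 4 MM134 variants was called. SLC7A6 was 23.9, 31.1 and 26.3 CPM in SUM44PE, 23.6, 22 and 21.1 in SUM44F, 45.2 and 42.5 in LTED-A and 43.4, 45.9 and 44.6 CPM in LTED-B, with no overlap between variants and parental samples. The log2 fold changes were 0.98 ± 0.08 and 1.01 ± 0.07 (adjusted p = 3.77e-06 and 1.29e-06). SLC7A6OS, on the opposite strand, overlaps 3372 exonic bases of SLC7A6. Since the strand setting of the quantification is not given, reads of that stretch cannot be assigned with certainty.

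SLC7A8 (LAT2), another carrier of neutral amino acids, moved in opposite directions between variants. It stood at 40.2, 36.4 and 34.8 CPM in MM134 parental cells, 35.1, 36.7 and 38.6 in LTED-A, 64.7, 63.5 and 66.7 in LTED-B, 68, 58.1 and 70.5 in LTED-D and 5.23, 4.81 and 5.17 CPM in LTED-E. In SUM44 it stood at 68, 66.2 and 69.6 CPM in SUM44PE, 31, 34 and 23.7 in SUM44F, 79.6 and 54.9 in LTED-A and 30.9, 31.9 and 30 CPM in LTED-B. MM134 LTED-E held far less than any other group, LTED-B and LTED-D held more than the parental cells, and LTED-A overlapped them. SLC7A8 rose by 0.81 ± 0.06 in LTED-B and 0.83 ± 0.06 in LTED-D on the log2 scale and fell by 2.86 ± 0.08 in LTED-E (adjusted p = 4.38e-16). In SUM44 LTED-A it rose by 1.18 ± 0.16 (adjusted p = 0.000233). That call ended without SUM44 LTED-A replicate 1 (0.94, adjusted p = 0.00277). SLC7A8 did not pass in SUM44 LTED-B (0.06, adjusted p = 0.749).

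The remaining light chains were low. Over all samples SLC7A7 ranged from 0.445 to 1.42 CPM, SLC7A9 from 0.19 to 0.972, SLC7A10 from 0.0271 to 0.721 and SLC7A13 from 0.0247 to 0.496 CPM. None was called against parental cells, though SLC7A10 and SLC7A13 were not tested in the SUM44 variants. SLC3A1, the heavy chain that works with SLC7A9 in kidney and gut, ranged from 1.06 to 2.34 CPM except for 4.79 CPM in SUM44F replicate 1, and it was not called in any variant. Its exons overlap PREPL by 1923 bases, and PREPL had a mean level of 85.7 CPM beside 1.96 CPM for SLC3A1, so reads of the shared stretch cannot be assigned with certainty.

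Promoter sequences were looked at for the 9 members upregulated in both SUM44 variants. RefSeq promoters on GRCh38.p14, from 250 bases before to 50 after the start, were found for 44 of the 59 members and for 7 of these 9, the exceptions being SLC7A11 and SLC38A3. The motifs were chosen after results had been seen and were searched on both strands. They were TGATGNAA, the core of the element bound by ATF4 with C/EBP factors, TGACNNNGC, the core of the antioxidant element bound by NRF2, and the palindromic estrogen response element, GGTCA and TGACC with 3 free bases between them. The second overlaps the AP-1 motif TGACTCA where its free bases read TCA. The first was found in 3.67% of 27305 promoters and in 4 of the 44 members, the second in 13.6% and in 5 of 44, and the third in 0.0659% and in 0 of 44. Of the 7 promoters, the first was in 2 (SLC3A2 and SLC7A1), the second in 4 (SLC3A2, SLC7A1, SLC7A5 and SLC7A6) and the third in 0. The windows holding the first motif and a choice of those holding the second are shown 5′ to 3′ on the strand of the gene, with the motif in capitals. They lie at chr11:62881725-62881748 and chr11:62881652-62881681 (both plus strand), chr13:29595663-29595692 and chr13:29595754-29595783 (both minus), chr16:87869490-87869519 (minus) and chr16:68264487-68264516 (plus), in that order.
SLC3A2, first motif (read on the opposite strand): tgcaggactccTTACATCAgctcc
SLC3A2, second motif: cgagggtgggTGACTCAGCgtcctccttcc
SLC7A1, first motif: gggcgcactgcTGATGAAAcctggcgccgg
SLC7A1, second motif: tgcccggcggTGACGCGGCcgagcgggccg
SLC7A5, second motif: gcggggttccTGACGCAGCtgcgggcggcg
SLC7A6, second motif: cggcggcgggTGACGTGGCggggcggggcc
A match describes letters only, and binding was not measured.

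Of the carriers of arginine and lysine, SLC7A1 (CAT1, chr13:29509414-29595688, minus strand) rose strongly in the SUM44 variants and in no MM134 variant. It measured 29.9, 31.5 and 34.3 CPM in SUM44PE, 28, 30.8 and 25.8 in SUM44F, 413 and 286 in LTED-A and 85.3, 93 and 87.5 CPM in LTED-B. MM134 parental samples held 38.4, 36.2 and 34.7 CPM and the MM134 variants 35.4 to 45.5 CPM. The log2 fold change was 3.63 ± 0.14 in SUM44 LTED-A (12.4-fold, adjusted p = 2.57e-08) and 1.65 ± 0.13 in LTED-B (3.14-fold, adjusted p = 2.73e-06). Genes beside it stood higher as well. Neighbours were the nearest genes on chromosome 13 with a mean of at least 5 CPM over all samples. The log2 fold changes of 39 of them had a median of 1.60 in SUM44 LTED-A and 0.19 in LTED-B. The part of this stretch in the SLC7A1 result was not tested.

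SLC7A2 (CAT2) had no common direction. Its level was 9.69, 10.4 and 10.1 CPM in MM134 parental cells, 25.6, 26.5 and 27.1 in LTED-A, 16.2, 18.8 and 19 in LTED-B, 7.84, 9.15 and 8.64 in LTED-D and 4.99, 4.26 and 4.6 CPM in LTED-E. In SUM44 it was 85.5, 88.4 and 87.5 CPM in SUM44PE, 91.8, 84 and 78.3 in SUM44F, 51.8 and 54.5 in LTED-A and 9.15, 9.31 and 9.59 CPM in LTED-B. LTED-A and LTED-B of MM134 stood above the parental samples and LTED-D and LTED-E below them, while both SUM44 variants stood below theirs. SLC7A2 rose by 1.39 ± 0.07 and 0.84 ± 0.07 on the log2 scale in MM134 LTED-A and LTED-B and fell by 1.12 ± 0.08 in LTED-E, with -0.22 in LTED-D not called. In SUM44 LTED-B it fell by 3.18 ± 0.08 (adjusted p = 7.38e-10), and in SUM44 LTED-A by 0.67 ± 0.08 (adjusted p = 9.02e-05). The last call ended without SUM44 LTED-A replicate 1 (-0.59, adjusted p = 0.00224).

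The third of these carriers, SLC7A3 (CAT3), had at most 3 counts in each MM134 parental library. In MM134 LTED-D it stood at 0.904, 0.645 and 0.72 CPM, at least 8.6-fold above the level that 3 counts per library would give in parental cells. It had no count in MM134 LTED-E, where the call of the model has no fold to go with it, because both groups were at or under 3 counts per library. MM134 LTED-A and LTED-B measured 0.2, 0.241 and 0.223 and 0.116, 0.165 and 0.124 CPM and were not called.

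Of the sodium-coupled glutamate carriers of the SLC1A family, SLC1A1 (EAAT3), which also takes up cysteine, fell in all 4 MM134 variants. It was 7.29, 7.15 and 7.25 CPM in MM134 parental cells, 0.641, 0.557 and 0.688 in LTED-A, 2.04, 3 and 2.31 in LTED-B, 1.23, 1.85 and 1.16 in LTED-D and 3.01, 2.86 and 2.39 CPM in LTED-E, with every variant below the parental samples. The log2 fold changes were -3.52 ± 0.17, -1.56 ± 0.15, -2.34 ± 0.16 and -1.39 ± 0.15 (adjusted p from 1.7e-12 to 1.61e-07). In the SUM44 line it was 2.79, 3.08 and 2.67 CPM in SUM44PE, 6.07, 2.07 and 2.27 in SUM44F, 0.79 and 0.947 in LTED-A and 5.63, 5.76 and 5.41 CPM in LTED-B. The first SUM44F value is that of the library with fibroblast transcripts. With it, neither SUM44 variant was called (-1.96, adjusted p = 0.00453, and 0.70, adjusted p = 0.121), and without it SLC1A1 was called lower in LTED-A (-1.30, adjusted p = 0.000273) and higher in LTED-B (1.36, adjusted p = 6.31e-05).

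SLC1A2 (EAAT2, the main glutamate carrier of astrocytes) fell in both SUM44 variants and in MM134 LTED-E. Its level was 41.2, 37.9 and 42.5 CPM in MM134 parental cells, 47.2, 43.1 and 43.9 in LTED-A, 55.1, 57.3 and 57.2 in LTED-B, 28, 27.9 and 26.4 in LTED-D and 12.7, 14.8 and 14.2 CPM in LTED-E. In SUM44 it was 63, 64.2 and 63.5 CPM in SUM44PE, 89.4, 88.7 and 87.2 in SUM44F, 21.6 and 21.1 in LTED-A and 32.9, 32.6 and 30.6 CPM in LTED-B. Both SUM44 variants lay below SUM44F and SUM44PE alike. The falls were 2.05 ± 0.07 and 1.47 ± 0.06 in SUM44 LTED-A and -B and 1.53 ± 0.06 in MM134 LTED-E on the log2 scale, that is, log2 fold changes of -2.05, -1.47 and -1.53 (adjusted p = 1.27e-08, 2.81e-08 and 4.95e-14). SLC1A6 (EAAT4), known from cerebellar neurons, was 4.83, 4.88 and 5.15 CPM in MM134 parental cells and 2.16 to 2.86 CPM in the MM134 variants. It fell in all 4, with log2 fold changes of -1.09, -0.83, -1.10 and -0.90 (SE 0.09 to 0.10), and was not called in either SUM44 variant (-0.15 and -0.25). SLC1A3 (EAAT1) stayed at or under 1.2 CPM in every sample and was not called against parental cells. It was not tested in the MM134 variants. Without the count filter edgeR called SLC1A3 higher in SUM44 LTED-B (1.60, adjusted p = 0.000564).

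The SLC6A carriers, which take up amino acids, amines and osmolytes with sodium and chloride, were led by the taurine transporter SLC6A6 (chr3:14402576-14489349, plus strand). SLC6A6 measured 28.1, 26.1 and 25.3 CPM in MM134 parental cells, 5.62, 6.05 and 5.63 in LTED-A, 4.59, 4.82 and 4.62 in LTED-B, 6.13, 6.76 and 7.06 in LTED-D and 3.26, 2.82 and 3.28 CPM in LTED-E. In the SUM44 line it measured 26.7, 30.7 and 29.5 CPM in SUM44PE, 38.2, 35.6 and 29.3 in SUM44F, 37.9 and 34.1 in LTED-A and 42.1, 42.4 and 42.8 CPM in LTED-B. All MM134 variants lay far below their parental samples, whereas SUM44 LTED-A overlapped SUM44F. The log2 fold changes were -2.21 ± 0.07, -2.50 ± 0.07, -1.98 ± 0.07 and -3.08 ± 0.07 in the MM134 variants (adjusted p from 6.47e-17 to 2.26e-14). In the SUM44 variants they were 0.07 ± 0.11 and 0.30 ± 0.10 (adjusted p = 0.666 and 0.0248).

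The creatine transporter SLC6A8 went the other way in MM134. It was 2.66, 3.32 and 3.04 CPM in parental cells, 8.67, 6.94 and 8.27 in LTED-A, 5.96, 5.52 and 5.72 in LTED-B, 3.36, 4.07 and 3.97 in LTED-D and 7.43, 7.28 and 8.08 CPM in LTED-E. It rose by 1.40 ± 0.10, 0.93 ± 0.11 and 1.35 ± 0.11 on the log2 scale in LTED-A, LTED-B and LTED-E, and the value of 0.35 ± 0.11 in LTED-D did not pass (adjusted p = 0.0144). All SUM44 samples were higher, at 12 to 17.4 CPM, and no SUM44 variant was called (0.23 and 0.04). The glycine transporter SLC6A9 was 9.72, 8.82 and 8.16 CPM in MM134 parental cells and 20.5, 21.2 and 22.5 CPM in LTED-A. It rose by 1.26 ± 0.06 in LTED-A and 0.84 ± 0.07 in LTED-B, and was not called in the other 4 variants. CCDC24 overlaps 413 of its exonic bases.

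SLC6A17, a carrier of neutral amino acids into synaptic vesicles, was low and went lower in all 4 MM134 variants. It stood at 0.686, 0.782 and 0.712 CPM in MM134 parental cells, 0.0702, 0.0742 and 0.13 in LTED-A and 0.0247, 0.0847 and 0.155 CPM in LTED-E, with log2 fold changes of -3.01 ± 0.41 and -2.93 ± 0.44. LTED-B and LTED-D had at most 2 counts per library and were at least 10.1-fold and 8.70-fold lower, by a floor of 3 counts per library. It was not tested in the SUM44 LTED comparisons, where SUM44F and both variants had at most 4 counts per library. SUM44PE against SUM44F gave 2.38 ± 0.67 (adjusted p = 0.0203) and did not pass.

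In the SUM44 variants the falling SLC6A members were others. SLC6A14 (ATB0,+), which takes up nearly all neutral and cationic amino acids, was 2.09, 2.51 and 2.27 CPM in SUM44PE, 3.06, 2.87 and 3.07 in SUM44F, 0.247 and 0.245 in LTED-A and 0.211, 0.148 and 0.218 CPM in LTED-B. It fell by 3.60 ± 0.23 and 3.92 ± 0.21 on the log2 scale (adjusted p = 8.67e-07 and 1.48e-07). SLC6A20, a carrier of proline, was 4.81, 5.04 and 4.7 CPM in SUM44F, 2.42 and 1.75 in LTED-A and 1.54, 1.09 and 1.55 CPM in LTED-B. SLC6A20 fell by 1.23 ± 0.20 in LTED-A and 1.79 ± 0.18 in LTED-B. Its call in LTED-A ended without SUM44F parental replicate 1 (-1.24, adjusted p = 0.00156), without SUM44F parental replicate 2 (-1.19, adjusted p = 0.00322), without SUM44F parental replicate 3 (-1.24, adjusted p = 0.00197), without SUM44 LTED-A replicate 1 (-1.42, adjusted p = 0.00187) and without SUM44 LTED-A replicate 2 (-1.0, adjusted p = 0.0102). Every sample of either variant lay below every SUM44F sample for both genes. In MM134 SLC6A14 had group means of 0.272 CPM in parental cells, 0.279 in LTED-A, 0.256 in LTED-B, 0.212 in LTED-D and 0.209 CPM in LTED-E. SLC6A20 had 1.5, 1.76, 1.7, 1.46 and 1.68 CPM in the same groups, and neither gene was called there.

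SLC6A12 (the betaine and GABA transporter) and SLC6A11 (a GABA transporter) separated the SUM44 variants. SLC6A12 was 0.948, 0.738 and 0.982 CPM in SUM44PE, 4.42, 3.65 and 2.85 in SUM44F, 1.14 and 1.18 in LTED-A and 0.271, 0.124 and 0.327 CPM in LTED-B. It fell by 3.83 ± 0.30 in LTED-B (adjusted p = 2.71e-06), while the value of -1.64 ± 0.29 in LTED-A narrowly missed the threshold (adjusted p = 0.00111). In the MM134 groups SLC6A12 lay at means of 0.286 CPM in parental cells and 0.177, 0.182, 0.218 and 0.147 CPM in LTED-A, -B, -D and -E, with no call. SLC6A11 was 0.39, 0.664 and 0.523 CPM in SUM44F, 0.272 and 0.289 in LTED-A and 2.95, 2.99 and 3.01 CPM in LTED-B. It rose by 2.50 ± 0.20 in LTED-B (adjusted p = 3.97e-06), the reverse of the SLC6A12 change in that variant. The serotonin carrier SLC6A4 and SLC6A16 were not called in any variant. Nor was the dopamine carrier SLC6A3, which was not tested in the MM134 variants. SLC6A3 had 16, 18 and 19 counts in SUM44F and at most 1 in LTED-A and 2 in LTED-B. By a floor of 3 counts per library it was at least 6.04-fold and 4.61-fold lower there. Without the count filter edgeR called it lower in both (adjusted p = 0.000815 and 0.00021).

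Of the SLC36A carriers, SLC36A1, which moves small amino acids with protons and is found on lysosomes, was downregulated in every MM134 variant. It was 9.46, 8.33 and 9.26 CPM in MM134 parental cells, 4.84, 4.62 and 4.54 in LTED-A, 4.31, 3.78 and 4.53 in LTED-B, 4.13, 3.59 and 2.88 in LTED-D and 4.69, 4.74 and 5.54 CPM in LTED-E, without overlap. The log2 fold changes were -0.95 ± 0.11, -1.10 ± 0.11, -1.35 ± 0.11 and -0.84 ± 0.11. In SUM44 its values of -0.12 and -0.58 did not pass. SLC36A4, which carries proline and tryptophan, was 23.9, 24.2 and 21.8 CPM in MM134 parental cells and at means of 18.1, 20.2, 22.9 and 17.7 CPM in MM134 LTED-A, -B, -D and -E, with no call. In SUM44 it was 11.4, 10.9 and 12.6 CPM in SUM44F, 12.8 and 14.4 in LTED-A and 19.4, 17.3 and 18.1 CPM in SUM44 LTED-B, where it rose by 0.65 ± 0.09 (adjusted p = 0.000267). That call ended without SUM44F parental replicate 1 (0.63, adjusted p = 0.00137), without SUM44F parental replicate 2 (0.61, adjusted p = 0.00192), without SUM44 LTED-B replicate 1 (0.61, adjusted p = 0.00217), without SUM44 LTED-B replicate 2 (0.69, adjusted p = 0.00124) and without SUM44 LTED-B replicate 3 (0.65, adjusted p = 0.0019). SLC36A2 and SLC36A3, which lie beside SLC36A1 on chromosome 5, were called in no variant.

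In the SLC38A family the abundant glutamine carriers moved little. SLC38A1 was 721, 672 and 685 CPM in MM134 parental cells, 929, 909.6 and 909 in LTED-A, 684, 708 and 742 in LTED-B, 862, 855 and 834 in LTED-D and 829, 837 and 843 CPM in LTED-E. It was 602, 649 and 635 CPM in SUM44PE, 545, 574 and 571 in SUM44F, 746 and 770.3 in LTED-A and 709, 674 and 644 CPM in LTED-B. All 6 log2 fold changes were between 0.04 and 0.43, below the fold threshold. SLC38A2, which cells raise when amino acids run short, had log2 fold changes of -0.39, -0.20, -0.16 and -0.47 in the MM134 variants and 0.27 and 0.55 in the SUM44 variants, with no call. Its levels were 375, 358 and 369 CPM in MM134 parental, 267, 262 and 262 in MM134 LTED-E, 158, 159 and 153 in SUM44F and 238, 222 and 228 CPM in SUM44 LTED-B.

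The less abundant members of this family did change. SLC38A3 (SNAT3), which moves glutamine and histidine, was 5.01, 5.17 and 5.52 CPM in SUM44PE, 1.97, 2.05 and 2.04 in SUM44F, 9.09 and 7.42 in LTED-A and 5.9, 5.95 and 6.09 CPM in LTED-B. It rose by 2.03 ± 0.13 and 1.56 ± 0.12 in the SUM44 variants (adjusted p = 9.69e-07 and 3.01e-06). In MM134 it was 0.429, 0.485 and 0.518 CPM in parental cells and 1.55, 1.82 and 1.56 CPM in LTED-D, a rise of 1.79 ± 0.32 that ended without MM134 parental replicate 1 (1.72, adjusted p = 0.00109). SLC38A11 was 0.114, 0.108 and 0.0971 CPM in MM134 parental cells, 0.411, 0.408 and 0.223 in LTED-A and 1.23, 1.37 and 1.46 CPM in LTED-D. SLC38A11 rose by 3.65 ± 0.33 in LTED-D (adjusted p = 2.43e-08) and by 1.70 ± 0.38 in LTED-A (adjusted p = 0.000841). Its LTED-A call ended without MM134 parental replicate 1 (1.75, adjusted p = 0.0039), without MM134 parental replicate 2 (1.71, adjusted p = 0.00494), without MM134 parental replicate 3 (1.65, adjusted p = 0.00449), without MM134 LTED-A replicate 1 (1.53, adjusted p = 0.0058) and without MM134 LTED-A replicate 2 (1.60, adjusted p = 0.00311). SLC38A9, the lysosomal arginine sensor upstream of mTORC1, was 13.9, 14.2 and 14.8 CPM in MM134 parental cells and 22.1, 21.2 and 22.1 CPM in LTED-A, where it rose by 0.61 ± 0.05 (adjusted p = 2.46e-09). In the SUM44 line SLC38A9 was 19.8, 22.3 and 19.5 CPM in SUM44F, 15.6 and 14.3 in LTED-A and 14.9, 16.7 and 16.8 CPM in LTED-B, with no call. SLC38A6 rose by 0.61 ± 0.08 in MM134 LTED-A, a call that ended without MM134 parental replicate 3 (0.57, adjusted p = 1.49e-05) and without MM134 LTED-A replicate 1 (0.58, adjusted p = 1.74e-05). SLC38A5 (SNAT5) was 0.715, 0.468 and 0.356 CPM in SUM44F, 0.123 and 0.0351 in LTED-A and 0.12, 0.148 and 0.0655 CPM in LTED-B. SLC38A4, SLC38A5, SLC38A7 and SLC38A10 were called in no variant, though SLC38A5 was not tested in the MM134 variants. Without the count filter edgeR called SLC38A5 lower in both SUM44 variants (adjusted p = 0.000356 and 0.000654).

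SLC43A1 (LAT3, chr11:57484534-57515780, minus strand), a carrier of branched-chain amino acids that needs no heavy chain, moved in opposite directions in the 2 lines. Its level was 5.86, 5.74 and 5.02 CPM in MM134 parental cells, 3.58, 3.9 and 3.68 in LTED-A, 2.18, 2.15 and 1.89 in LTED-B, 3.74, 4.07 and 4.36 in LTED-D and 1.38, 1.44 and 1.53 CPM in LTED-E. In the SUM44 line it was 1.63, 2.05 and 2.12 CPM in SUM44PE, 0.932, 0.996 and 0.901 in SUM44F, 8.77 and 8.86 in LTED-A and 4.3, 3.51 and 3.77 CPM in LTED-B. All MM134 variants lay below their parental samples and all SUM44 variants above theirs. SLC43A1 fell by 0.59 ± 0.09, 1.41 ± 0.10 and 1.92 ± 0.10 on the log2 scale in MM134 LTED-A, LTED-B and LTED-E, and its value in LTED-D was -0.43 (adjusted p = 0.000726). The LTED-A call ended without MM134 parental replicate 1 (-0.54, adjusted p = 0.00023), without MM134 parental replicate 2 (-0.56, adjusted p = 0.000198), without MM134 LTED-A replicate 1 (-0.55, adjusted p = 0.000242) and without MM134 LTED-A replicate 3 (-0.57, adjusted p = 0.000174). In SUM44 it rose by 3.23 ± 0.14 in LTED-A and 2.03 ± 0.14 in LTED-B (adjusted p = 6.76e-08 and 9.09e-07). SLC43A2 (LAT4) rose in MM134 LTED-D (0.75 ± 0.08) and fell in SUM44 LTED-B (-0.82 ± 0.11), the latter a call that ended without SUM44 LTED-B replicate 1 (-0.81, adjusted p = 0.00126) and without SUM44 LTED-B replicate 2 (-0.79, adjusted p = 0.00161). SLC43A3, a purine nucleobase carrier 56954 bases from SLC43A1, ranged from 0.186 to 1.56 CPM and was called in no variant.

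Counted by sharing, 4 members were upregulated in at least 3 MM134 variants (SLC1A5, SLC3A2, SLC6A8 and SLC7A11), beside 6.66% of all genes tested, and 6 were downregulated in at least 3 (SLC1A1, SLC1A6, SLC6A6, SLC6A17, SLC36A1 and SLC43A1), beside 6.83%. In SUM44, 9 members were upregulated in both variants (SLC1A4, SLC1A5, SLC3A2, SLC7A1, SLC7A5, SLC7A6, SLC7A11, SLC38A3 and SLC43A1), beside 3.87% of all genes, and 4 were downregulated in both (SLC1A2, SLC6A14, SLC6A20 and SLC7A2), beside 4.75%. SLC1A5, SLC3A2 and SLC7A11 were on both upregulated lists. No member was on both downregulated lists.

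Whether a member responded differently in the 2 lines was tested with an interaction term, in which the average log2 change over the 2 SUM44 variants was taken away from the average over the 4 MM134 variants. Of 48 members tested, 22 were called (45.8% beside 20.9% of all genes), 9 with the higher change in MM134 (all genes 10.8%) and 13 with the higher change in SUM44 (all genes 10.2%). The widest gap belonged to SLC43A1, at -3.72 ± 0.13 (adjusted p = 2.1e-16). SLC6A6 (-2.64 ± 0.09), SLC1A4 (-2.55 ± 0.06), SLC7A1 (-2.51 ± 0.11) and SLC7A11 (-2.45 ± 0.08) followed on the same side. SLC7A11 was upregulated in 3 of 4 MM134 variants and in both SUM44 variants, and its average change was larger in SUM44. Its MM134 values ran from 0.08 in LTED-B to 2.56 in LTED-E. On the other side stood SLC6A14 (3.59 ± 0.36), SLC7A2 (2.14 ± 0.09), SLC6A12 (2.03 ± 0.36) and SLC1A2 (1.39 ± 0.06). Of these, SLC6A14 and SLC6A12 were at or under 0.453 and 0.351 CPM in every MM134 sample, which left little room to measure a fall there. SLC1A5 (-0.28 ± 0.08, adjusted p = 0.00594) and SLC3A2 (-0.34 ± 0.07, adjusted p = 0.000684) did not pass both thresholds. Each line is 1 cell line, so line and any difference in handling between the lines cannot be told apart.

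**Figure D4:**
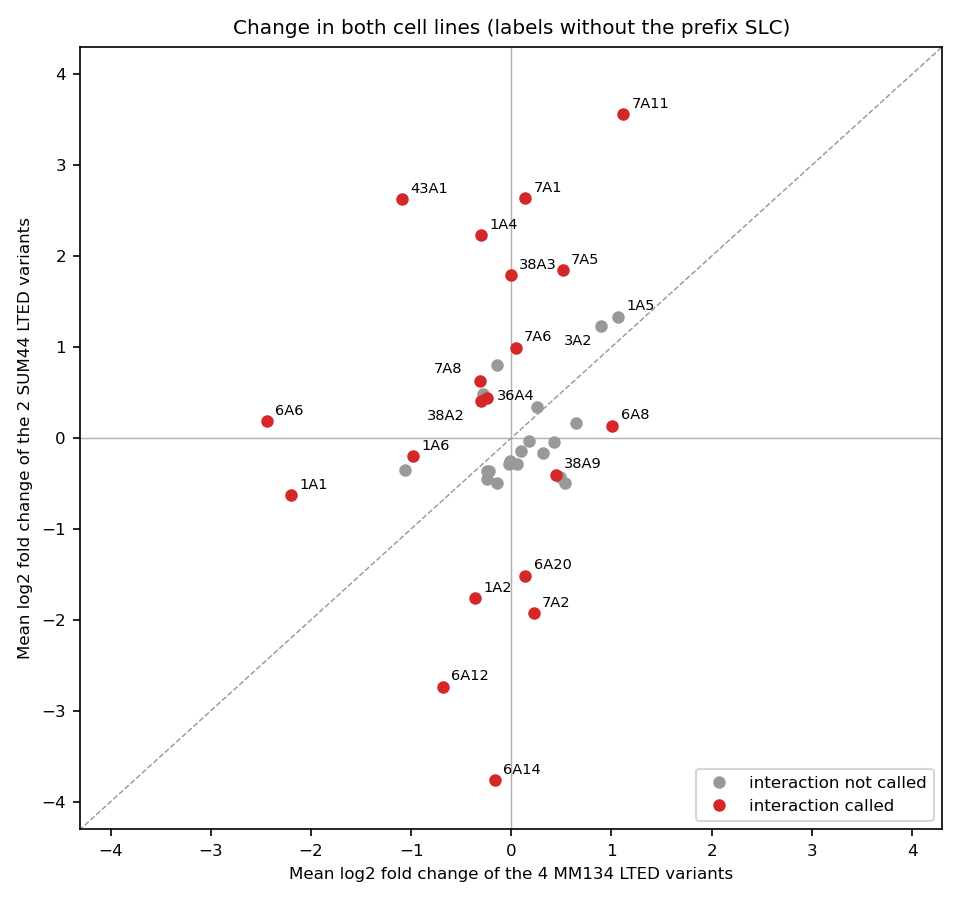
Mean log2 fold change of each member tested in both lines, over the 4 MM134 LTED variants (x axis) and the 2 SUM44 LTED variants (y axis), with 1 point per gene, red where the interaction was called and a dashed line where both are equal. SLC43A1, SLC7A1 and SLC1A4 lie far above the dashed line and SLC7A2 and SLC6A14 below it, while SLC1A5 and SLC3A2 lie close to it.

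The 4 MM134 variants also differed among themselves, in 18 of 45 members tested (40% beside 19.6% of all genes). In 9 of the 18 the highest and lowest variant were over 4-fold apart: SLC1A1, SLC1A2, SLC7A2, SLC7A3, SLC7A8, SLC7A11, SLC7A13, SLC38A3 and SLC38A11. The span was 3.69 on the log2 scale for SLC7A8 (adjusted p = 6.03e-17), 2.50 for SLC7A2, 2.48 for SLC7A11, 2.13 for SLC1A1 and 2.02 for SLC1A2. LTED-E was at 1 end of the order for SLC7A2, SLC7A8, SLC7A11 and SLC1A2, being lowest in SLC7A2, SLC7A8 and SLC1A2 and highest in SLC7A11. LTED-A was lowest for SLC1A1. Members up in some and down in other MM134 variants were SLC7A2, SLC7A3 and SLC7A8, a pattern held by 0.944% of all genes tested. For SLC7A3 the call in LTED-E has no fold and ended with DESeq2 (adjusted p = 0.00355) and without any 1 library of LTED-E or without parental replicate 2 or 3 (adjusted p = 0.00229 to 0.00494). The SLC7A13 call among the variants, at 0.496 CPM or less, ended with DESeq2 (adjusted p = 0.00156) and without any 1 library of LTED-A, LTED-B or LTED-E or without LTED-D replicate 3, when the adjusted p was 0.00136 to 0.00526.

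Between SUM44 LTED-A and LTED-B, 9 of 43 tested members differed (20.9% beside 7.42% of all genes), 7 higher in LTED-A (all genes 3.56%) and 2 higher in LTED-B (all genes 3.86%). SLC7A2 (2.51 ± 0.08), SLC6A12 (2.19 ± 0.32), SLC7A1 (1.98 ± 0.14), SLC43A1 (1.20 ± 0.13), SLC7A8 (1.12 ± 0.16), SLC43A2 (1.06 ± 0.12) and SLC6A9 (0.87 ± 0.12) were higher in LTED-A. SLC6A11 (-3.39 ± 0.25) and SLC1A3 (-3.90 ± 0.53) were higher in LTED-B. SLC1A1 was lower in both LTED-A samples than in any LTED-B sample but did not pass (-2.66 ± 0.44, adjusted p = 0.00125), whereas it did with DESeq2 (-2.67, adjusted p = 8.29e-06). With n = 2 in LTED-A this comparison depended on single libraries, and 3 of the 9 calls (SLC6A11, SLC7A1 and SLC7A2) held without each library in turn. Without SUM44 LTED-A replicate 1 or SUM44 LTED-B replicate 2, 3 members were called, and without LTED-B replicate 1 or 3, 5 were.

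SUM44PE, the culture from which SUM44F was made, differed from SUM44F in 8 of 45 tested members (17.8% beside 5.57% of all genes), 7 of them higher in SUM44PE (all genes 2.85%) and 1 lower (2.72%). SLC38A3 (1.36 ± 0.11), SLC7A8 (1.19 ± 0.13), SLC7A11 (1.08 ± 0.08), SLC43A1 (1.03 ± 0.14), SLC3A2 (0.66 ± 0.09), SLC7A5 (0.65 ± 0.08) and SLC6A9 (0.62 ± 0.10) were higher in SUM44PE, and SLC6A12 (-2.04 ± 0.24) was lower. This comparison shares its SUM44F libraries with those of the LTED variants. By level, the LTED samples stood above the SUM44PE samples too for SLC3A2, SLC7A5, SLC7A11, SLC38A3 and SLC43A1, whereas SLC7A8 in LTED-A (67.2 ± 17.5 CPM, mean ± SD) was at the level of SUM44PE (67.9 ± 1.71 CPM). Without SUM44PE replicate 2 or without replicate 3, 4 of the 8 remained called (SLC6A12, SLC7A8, SLC7A11 and SLC38A3).

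The parental lines differed from each other in 22 of 48 members tested (45.8% beside 38.1% of all genes), 9 higher in MM134 (all genes 18.9%) and 13 higher in SUM44F (19.2%). MM134 parental cells held more SLC43A1 (2.54 ± 0.11 on the log2 scale) and SLC38A2 (1.21 ± 0.05), and less SLC7A2 (-3.09 ± 0.07), SLC6A8 (-2.21 ± 0.11), SLC7A5 (-1.82 ± 0.07), SLC6A14 (-3.51 ± 0.29) and SLC7A6 (-0.95 ± 0.05).

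With the library carrying fibroblast transcripts left out, the members called numbered 14 in SUM44 LTED-A, 17 in LTED-B, 8 in SUM44PE, 20 between the parental lines and 22 in the interaction. Of the former calls, 13, 16, 8, 18 and 21 remained. SLC1A1 was gained in both SUM44 variants, and SLC6A20 was lost in LTED-A and SLC36A4 in LTED-B. Between the parental lines SLC1A6, SLC6A3, SLC38A5 and SLC38A7 were lost, and SLC1A1 and SLC38A10 were gained. In the interaction SLC38A5 was lost and SLC36A1 was gained (-0.87, adjusted p = 0.00079 in edgeR).

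Genes around the transporters were followed in 4 lists: the amino acid response controlled by ATF4, the enzymes that make and break down amino acids, the sensors that report amino acids to mTORC1, and other carriers outside the member families. Of 20 tested response genes, 11 rose and 2 fell in MM134 LTED-A, 7 and 3 in LTED-B, 5 and 3 in LTED-D, 9 and 5 in LTED-E, 12 and 1 in SUM44 LTED-A and 11 and 1 in SUM44 LTED-B. Over the 6 comparisons 25% to 60% of them rose, beside 6.39% to 10.5% of all genes tested, and 5% to 25% fell, beside 7.28% to 10.3%. Their median log2 fold change was 0.73, 0.36, 0.38 and 0.32 in the MM134 variants and 0.89 and 1.01 in the SUM44 variants, beside -0.09 to 0.02 for all genes. TRIB3, a pseudokinase induced by ATF4, rose by 3.98, 2.26, 1.61, 3.0, 1.33 and 1.20 on the log2 scale, in the order MM134 LTED-A, -B, -D, -E and SUM44 LTED-A, -B. NUPR1, a stress-induced chromatin protein, rose in the same order by 4.65, 3.05, 2.18, 2.03, 1.21 and 1.24. CHAC1, which degrades glutathione, rose by 2.21, 1.99, 0.77, 1.99, 1.65 and 1.74, and so all 3 genes were upregulated in all 6 variants. PPP1R15A, the phosphatase subunit that reverses the phosphorylation of eIF2 alpha, was named after its values were seen and went the other way. It fell in all 6 variants, with log2 fold changes of -0.80, -0.65, -1.05, -1.12, -1.07 and -1.39 in the same order. STC2, a secreted glycoprotein, fell in MM134 (-1.71, -1.0, -2.26 and -4.21) and rose in SUM44 (2.88 and 2.53). ATF4 itself was not called in any MM134 variant and rose by 1.34 and 1.19 in the SUM44 variants.

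**Figure D5:**
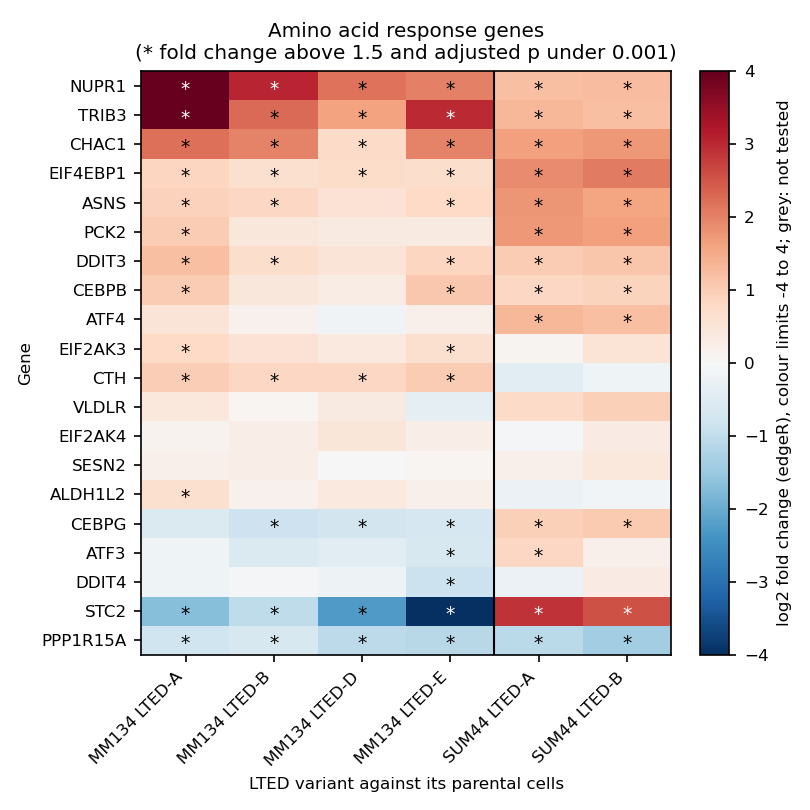
Heat map of the log2 fold change of 20 amino acid response genes (rows) in the 6 LTED variants against their parental line (columns), with stars for DE calls. TRIB3, NUPR1 and CHAC1 are upregulated in every column, and STC2 is downregulated in the MM134 columns and upregulated in the SUM44 columns.

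Of 29 tested enzymes of amino acid synthesis and breakdown, 9 rose and 1 fell in MM134 LTED-A, 4 and 0 in LTED-B, 7 and 0 in LTED-D, 9 and 1 in LTED-E, 10 and 2 in SUM44 LTED-A and 9 and 2 in SUM44 LTED-B. That was 13.8% to 34.5% up and 0% to 6.9% down, beside the same shares of all genes, and the medians ran from 0.10 in MM134 LTED-B to 0.39 in SUM44 LTED-B. PRODH, the first enzyme of proline breakdown, had log2 fold changes of 3.18, 2.84, 2.14 and 2.13 in MM134 and 1.61 and -0.82 in SUM44. CBS, which turns homocysteine towards cysteine, rose by 2.57 and 2.82 in the SUM44 variants and by 0.97 and 0.82 in MM134 LTED-A and LTED-B, while LTED-D (0.32) and LTED-E (-0.28) stayed under the fold of 1.5. TDO2, which opens tryptophan breakdown, was at the floor in MM134 parental cells and at 15.1, 1.1, 1.19 and 12.3 CPM in MM134 LTED-A, -B, -D and -E. In SUM44 it stood at 8.95 CPM in SUM44F, fell to 4.29 CPM in LTED-A (log2 fold change -1.05) and rose to 15.5 CPM in LTED-B (0.79). Of 23 tested genes of lysosomal sensing for mTORC1, 3 rose and 3 fell in MM134 LTED-A, 2 and 2 in LTED-B, 3 and 2 in LTED-D, 2 and 4 in LTED-E, 2 and 4 in SUM44 LTED-A and 1 and 5 in SUM44 LTED-B. The share that rose, 4.35% to 13%, was near that of all genes (6.39% to 10.5%). The share that fell was 8.7% to 21.7%, beside 7.28% to 10.3% of all genes, and the medians ran from -0.01 to 0.12. SESN3, a sestrin that restrains mTORC1, had log2 fold changes of -2.79, -3.88, -4.01, -1.36, -2.19 and -4.75, while the Rag GTPase RRAGD had 5.31, 3.56, 4.13 and 4.11 in MM134 and, in SUM44, fell in LTED-A (-0.81) and rose in LTED-B (0.62). Of 19 other carriers, 6 rose and 0 fell in MM134 LTED-A, 2 and 0 in LTED-B, 5 and 1 in LTED-D, 4 and 1 in LTED-E, 2 and 1 in SUM44 LTED-A and 2 and 2 in SUM44 LTED-B. Thus 10.5% to 31.6% rose, beside 6.39% to 10.5% of all genes, and 0% to 10.5% fell, beside 7.28% to 10.3%. The medians ran from -0.01 to 0.27. Among them the mitochondrial glutamate carrier SLC25A22 had log2 fold changes of 1.05, 0.54, 1.66, 0.90, 1.04 and 0.87.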

How the data were processed

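Total RNA was extracted with the Illustra RNAspin Mini Kit, libraries were prepared with the TruSeq Stranded Total RNA kit and run on a HiSeq instrument, and the authors deposited estimated counts per gene from Salmon 0.6.0 (hg38, Ensembl 82). Read trimming and the strand setting are not given in the sources used here. The estimated counts were rounded to whole numbers. Symbols and positions came from GENCODE 44, in which 56434 of 60619 gene IDs were found. SUM44 LTED-A replicates 2 and 3 were averaged (chi-square per degree of freedom 0.312, other pairs 2.35 to 58.1).

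Genes were filtered with filterByExpr, scaled by TMM and tested with the two-sided quasi-likelihood F-test of edgeR 4.0.16 (R 4.3.3), with Benjamini-Hochberg adjustment over 26061 (MM134), 26834 (SUM44), 27457 (with SUM44PE) or 29200 genes (both lines). The MM134 groups were fitted together, as were SUM44F and its variants. DE meant a fold change above 1.5 and adjusted p below 0.001. The scripts were tested on simulated counts. Where no library of a group held over 3 counts, folds used a floor of 3 counts per library and cover counting error only. Alternatives were DESeq2 1.42.0, RLE size factors, no count filter, no minimum fold change, a replicate block, separate SUM44 LTED-A replicates and leaving out each library. The members and gene lists were chosen with earlier results of these data known. Members were named with values when called in the same direction in at least 3 MM134 or both SUM44 variants, when called in the interaction, when called in opposite directions or with a spread above 4-fold among MM134 variants, when among the top 5 per kilobase in a parental line, or as SLC3A2 and its light chains. Promoters came from RefSeq (GRCh38.p14).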

Additional observations from a re-analysis of the deposited data

Results flagged for a closer look

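These members differed between the 2 cell lines by the interaction test, given as the average log2 change over the MM134 LTED variants less the average over the SUM44 LTED variants, with adjusted p-values from edgeR over all genes tested. The change was higher in MM134 for SLC6A14 (3.59), SLC38A5 (2.96), SLC38A11 (2.45), SLC7A2 (2.14), SLC6A12 (2.03), SLC6A20 (1.65), SLC1A2 (1.39), SLC6A8 (0.86) and SLC38A9 (0.84). It was higher in SUM44 for SLC43A1 (-3.72), SLC6A6 (-2.64), SLC1A4 (-2.55), SLC7A1 (-2.51), SLC7A11 (-2.45), SLC38A3 (-1.80), SLC1A1 (-1.59), SLC7A5 (-1.34), SLC7A6 (-0.96), SLC7A8 (-0.95), SLC1A6 (-0.78), SLC38A2 (-0.72) and SLC36A4 (-0.69). Variants of 1 line could differ under such an average. SLC7A8 had -0.02, 0.81, 0.83 and -2.86 in MM134 LTED-A, -B, -D and -E, and 1.18 and 0.06 in SUM44 LTED-A and -B. SLC1A1 had -1.96 in SUM44 LTED-A and 0.70 in SUM44 LTED-B. SLC38A5 and SLC38A11 were low in both lines, at or under 1.46 CPM in every sample. In the MM134 line SLC6A14 and SLC6A12 were low as well, at or under 0.453 and 0.351 CPM in every sample. That left little room to measure a fall of either gene in MM134. The SLC1A1 difference was not called without MM134 parental replicate 1 (-1.58, adjusted p = 0.00113), without MM134 parental replicate 2 (-1.59, adjusted p = 0.00105), without MM134 parental replicate 3 (-1.58, adjusted p = 0.00102), without SUM44F parental replicate 2 (-1.33, adjusted p = 0.00132), without SUM44F parental replicate 3 (-1.34, adjusted p = 0.00173) and without SUM44 LTED-A replicate 2 (-1.51, adjusted p = 0.00315). The SLC38A5 difference was not called without MM134 parental replicate 1 (2.50, adjusted p = 0.00206), without SUM44F parental replicate 1 (2.65, adjusted p = 0.00146), without SUM44 LTED-A replicate 2 (2.48, adjusted p = 0.00286) and without SUM44 LTED-B replicate 3 (2.73, adjusted p = 0.00116), nor was that of SLC38A11 without MM134 parental replicate 1 (2.50, adjusted p = 0.00109), without MM134 parental replicate 2 (2.46, adjusted p = 0.0013), without MM134 parental replicate 3 (2.40, adjusted p = 0.00128), without SUM44F parental replicate 3 (2.28, adjusted p = 0.00266) and without SUM44 LTED-A replicate 2 (2.04, adjusted p = 0.00203). SLC38A2 and SLC38A5 were called here although neither was called in any single variant. For SLC38A5 no MM134 variant was tested. Its log2 fold changes were -2.94 in SUM44 LTED-A and -2.28 in SUM44 LTED-B. Without the count filter edgeR called SLC38A5 lower in both (adjusted p = 0.000356 and 0.000654).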

How the results depend on the processing

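No called result of a member changed direction under the alternatives run. Without a minimum fold change, the members called numbered 20 in MM134 LTED-B and 19 in MM134 LTED-D (12 in each with it), and the other counts stayed within 1.5 times. Leaving out each library in turn gave 13 to 16 members called for MM134 LTED-A, while MM134 LTED-B had 12 to 13, MM134 LTED-D had 11 to 13 and MM134 LTED-E 15 to 16, against 11 to 14 in SUM44 LTED-A, 15 to 17 in SUM44 LTED-B, 4 to 8 in SUM44PE, 19 to 21 between the parental lines, 3 to 7 between the SUM44 variants, 17 to 18 among the MM134 variants and 19 to 22 in the interaction. Of 87 calls against parental cells, 77 held without each library in turn and 10 ended without at least 1. The SLC7A3 call in MM134 LTED-E ended without MM134 parental replicate 2 (adjusted p = 0.00229), without MM134 parental replicate 3 (adjusted p = 0.00304), without MM134 LTED-E replicate 1 (adjusted p = 0.00311), without MM134 LTED-E replicate 2 (adjusted p = 0.00407) and without MM134 LTED-E replicate 3 (adjusted p = 0.00494). Leaving out a SUM44 LTED-A sample leaves 1, which is assumed to vary like the other groups. DESeq2 ended 7 and added 5 of 494 member results, among them SLC6A12 in SUM44 LTED-A (-1.60, adjusted p = 1.5e-06). Size factors by RLE added 1 call and ended 0, and moved the median of all genes by less than 0.1 on the log2 scale. Without the count filter 14 were added and 2 ended. Deviations of same-numbered replicates from their group means correlated by -0.0957 to 0.153, so the numbers were not taken to pair the samples, and a replicate block ended 9 of 495 and added 0. Depth limits the 11 untested members, whose group means stayed at or under 0.226 CPM.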
